A study of Mus musculus with 6 samples.

Results

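Genes of striated muscle were followed in RNA from whole mouse thymus. A total of 36 genes were chosen by symbol, and all 36 were found among the 24054 genes of the count table. They encode the contractile proteins of skeletal and cardiac muscle, the proteins that hold and trigger them, the muscle acetylcholine receptor with its clustering kinase, and 3 transcription factors that start the skeletal muscle programme. Of the 36, 32 passed the filter on low counts and were tested, and 4 (Chrnd, Chrng, Musk and Myf5) did not.

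RANKL libraries numbered 3 and came from K5-rtTA:TetO-RANKL mice. Their rtTA activator is made under the keratin 5 promoter, so that with doxycycline the RANKL transgene is read in keratin 5 cells, among them medullary epithelium. The 3 control libraries came from control mice, described as monogenic, with no statement of which transgene they carry. Both groups received doxycycline in food and water, so the drug is common to all 6 libraries. The schedule is given as 1 week from 8 weeks of age in the series text and as 2 weeks from 9 weeks of age in the sample text. The libraries held 18254870, 25357060 and 20465867 counted reads in RANKL replicates 1 to 3, against 19771112, 18654395 and 21453466 in control replicates 1 to 3, and 3 reads corresponded to 0.122 to 0.161 CPM (reads scaled to a common library size). Transcripts of Tnfsf11, which encodes RANKL, averaged 3512 ± 1221 CPM in RANKL libraries and 7.08 ± 1.57 CPM in control libraries (SD, n = 3 each), in the direction of the labels. The transgene and the mouse gene are not told apart in these counts. Thymus markers were present in both groups, with 7 double-positive thymocyte genes summing to 181 to 807 CPM in RANKL libraries and 8334 to 9485 CPM in control libraries. Their median log2 fold change, RANKL over control, was -4.67, and the part of this difference in the muscle results was not tested.

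A sarcomere is the repeating unit of striated muscle, in which thick filaments of myosin slide along thin filaments of actin under the control of troponin. Most of its proteins come in isoforms used in fast or slow skeletal fibres, in heart, or before and around birth. The thymus of vertebrates contains rare muscle-like (myoid) cells, and medullary epithelial cells display transcripts of muscle and other tissues to developing T cells, partly under the regulator Aire. The acetylcholine receptor of muscle is the main target of antibodies in myasthenia gravis, a disease linked to the thymus. Skeletal muscle, heart, great vessels and fat lie close to the thymus, so the muscle content of a library can differ with dissection.

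The myogenic factors Myod1 and Myog, the acetylcholine receptor alpha subunit, embryonic and perinatal myosin heavy chains and the slow troponin I gene were each higher in every RANKL library than in any control library, by 3.91 to 12.2 times in mean CPM. The 12.2 of Myod1 rests on 4, 0 and 1 control reads. Actn3, Mybpc2, Cacna1s, Chrnb1 and Chrnd also separated with RANKL higher, by 3.49, 3.07, 2.27, 1.49 and 6.98 times. Mylpf, Tnnt1 and Musk separated with RANKL lower. Adult fast myosins, skeletal actin, creatine kinase and the cardiac myosins spanned wide ranges within both groups, and none of them was called. With calls made below 0.05 (edgeR adjusted p), RANKL libraries were higher for 10 and lower for 3 of the 32 members tested, leaving 19 without a call. Across all 16096 genes tested, 33.8% were called higher and 29.6% lower, 63.4% in either direction, beside 40.6% of the members. A count of 10 higher is thus near the share of genes at large. The median log2 fold change was -0.09 over the members tested and -0.02 over all genes tested. Groups did not overlap for 14 of the 36 members, 11 with RANKL higher and 3 with RANKL lower, whereas 36.1% and 34.1% of all tested genes separated in these directions. The member counts include Chrnd (higher) and Musk (lower), which were not tested. Among the 32 tested members, 20 overlapped. Chrna1, Myog and Myod1 passed the filter only through RANKL libraries, and without any filter 10 of the 36 members were higher and 3 lower, against 28.6% and 25.6% of 20797 genes. Upper-quartile factors gave 10 higher and 1 lower, against 35.8% and 25.6% of all genes. A fit on RANKL replicates 2 and 3 and control replicate 3 alone, whose titles share their leading digits, was chosen after seeing the data and gave 7 higher and 1 lower, against 21.6% and 19.5% of genes. With a single control library, assumed to vary like the others, its calls say little. Chrna1 was at 2.26 ± 0.76, Myod1 at 4.13 ± 1.18, Tnni1 at 1.98 ± 0.78, Actn3 at 1.46 ± 0.61, Cacna1s at 0.97 ± 0.47 and Myog at 1.54 ± 0.87 on the log2 scale there, none of them called (edgeR adjusted p = 0.05 to 0.204). Myl1 at -0.30 ± 0.58 and Tnnt1 at -1.51 ± 0.48 were not called either (edgeR adjusted p = 0.686 and 0.0626).

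**Figure D1:**
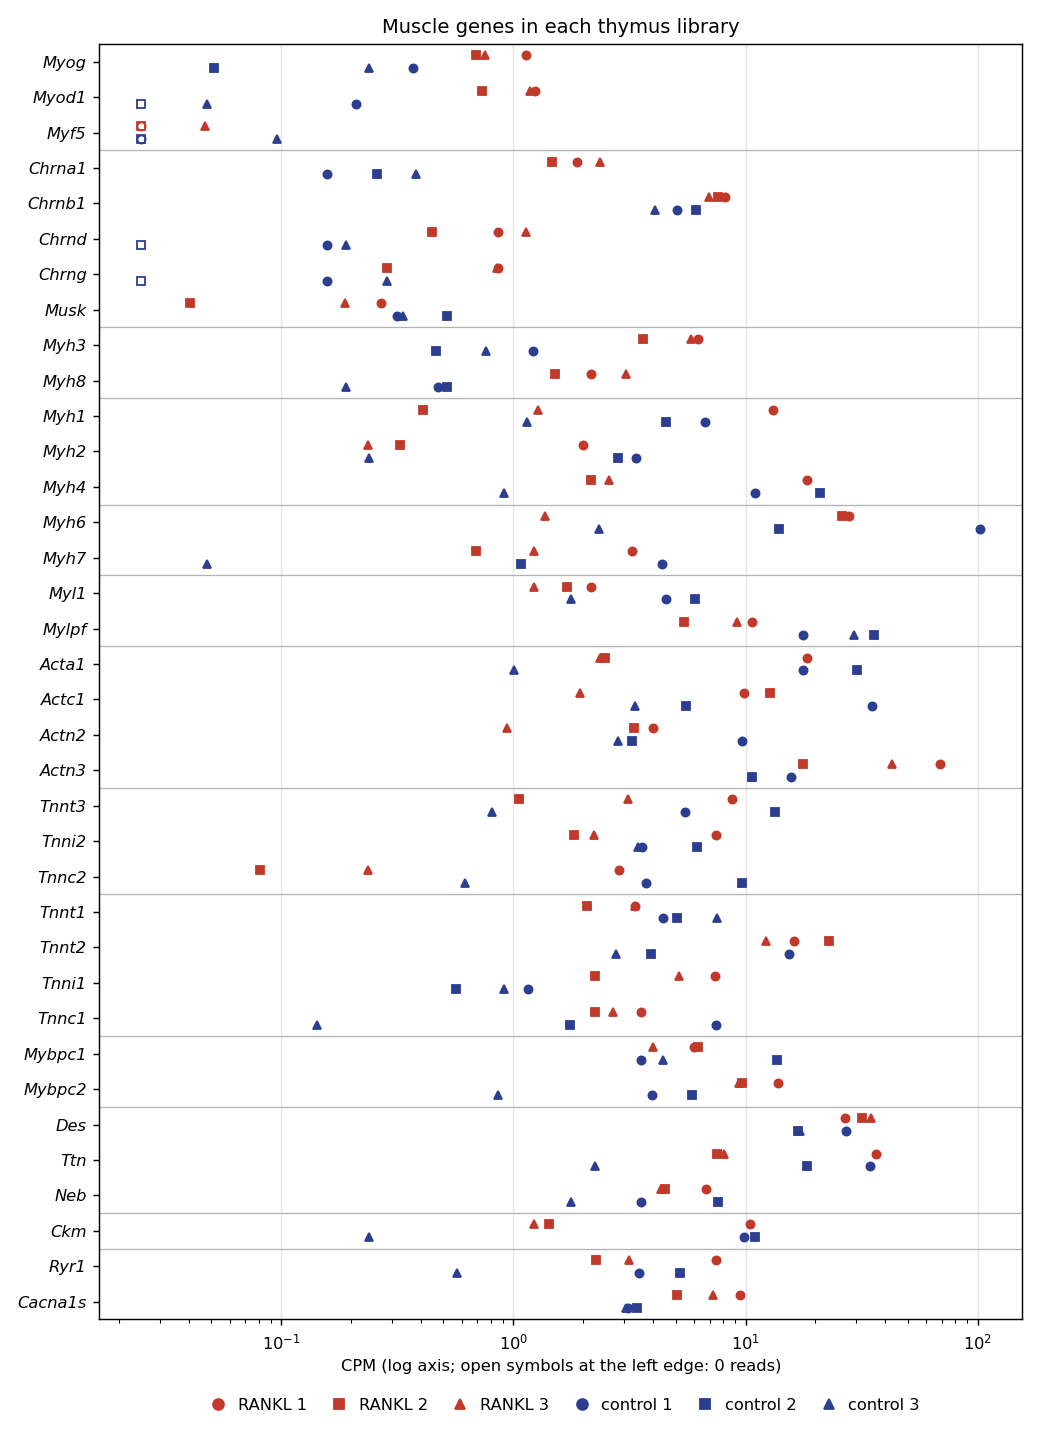
Expression of the 36 muscle genes in each library, in CPM on a log axis, with RANKL libraries in red above control libraries in blue, symbol shapes for replicates, and genes grouped by role. The RANKL symbols of Myod1, Myog, Chrna1, Myh3 and Myh8 lie to the right of all control symbols, whereas those of the adult fast heavy chains and of Myh6 and Myh7 intermingle.

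Myogenic transcription factors commit cells to the skeletal muscle lineage and drive their fusion and contractile genes. Myod1 (MyoD, chromosome 7, 46376474 to 46379099 in GRCm38) had 23, 18 and 25 reads in RANKL replicates 1, 2 and 3, against 4, 0 and 1 in control replicates 1, 2 and 3. Its level averaged 1.05 ± 0.277 CPM in RANKL libraries and 0.0862 ± 0.111 CPM in control libraries (SD, n = 3 each). Myod1 rose by 3.53 ± 0.75 on the log2 scale (edgeR adjusted p = 0.00258). Throughout, ± gives the SE for log2 fold changes and the SD (n = 3 each) for mean levels. Every RANKL library stood above every control library, though all counts were small. Myog (myogenin, chromosome 1, 134289989 to 134292548), which acts at terminal differentiation, had 21, 17 and 16 reads in RANKL libraries, against 7, 1 and 5 in control libraries. The groups did not overlap, at 0.691 to 1.13 CPM in RANKL libraries and 0.0515 to 0.369 CPM in control libraries, and the log2 fold change was 1.93 ± 0.61 (edgeR adjusted p = 0.0189). Myog lost its call without RANKL replicate 1 (0.0556), control replicate 2 (0.0572) or control replicate 3 (0.0533). Myf5, the factor of early precursors, had 0, 0 and 1 reads in RANKL libraries and 0, 0 and 2 in control libraries, at or below the floor of 3 counts, so no difference was detectable at this depth.

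The muscle acetylcholine receptor is a channel of 5 subunits that opens when a motor nerve releases acetylcholine. The gamma subunit, Chrng, marks the fetal form and is replaced by the epsilon subunit after birth, while Chrna1 provides the alpha subunit that binds acetylcholine. Chrna1 (chromosome 2, 73563215 to 73580338) had 35, 36 and 50 reads in RANKL libraries, against 3, 5 and 8 in control libraries. The lowest RANKL library, at 1.46 CPM, lay well above the highest control library, at 0.382 CPM, and Chrna1 rose 7.15-fold (log2 fold change 2.80 ± 0.48, edgeR adjusted p = 0.000727). Chrnd, the delta subunit (chromosome 1, 87190607 to 87200070), had 16, 11 and 24 reads in RANKL libraries and 3, 0 and 4 in control libraries. It averaged 0.813 ± 0.344 CPM in RANKL libraries and 0.116 ± 0.102 CPM in control libraries without overlap, missed the filter on low counts, and had a log2 fold change of 2.63 ± 0.78 when no filter was used (edgeR adjusted p = 0.0102). It passed the filter, and was called, when any one of RANKL replicate 2 or the control replicates was left out. In each of these fits Chrnd passed only through RANKL libraries, where it was high, so the calls add little. Chrng (chromosome 1, 87204657 to 87212694) had 16, 7 and 18 reads in RANKL libraries and 3, 0 and 6 in control libraries. RANKL replicate 2, at 0.285 CPM, was level with control replicate 3, at 0.287 CPM, and without a filter the log2 fold change of Chrng was 1.98 ± 0.82 (edgeR adjusted p = 0.0516). With RANKL replicate 2 or control replicate 3 left out, the libraries that made the groups overlap, Chrng passed the filter and was called. With control replicate 1 or 2 left out, it passed the filter and was not called. In all of these fits it passed only through RANKL libraries. Chrnb1, the beta subunit, was the most abundant of the 4 per transcript length, at 3.52 ± 0.280 CPM per kilobase in RANKL libraries and 2.36 ± 0.481 CPM per kilobase in control libraries. Its RANKL libraries, at 8.18, 7.60 and 6.97 CPM, lay above the control libraries, at 5.06, 6.13 and 4.06 CPM, but the log2 fold change of 0.58 ± 0.27 was not called (edgeR adjusted p = 0.0829). With a block by the leading digits of the title number it was 0.78 ± 0.27 and called (edgeR adjusted p = 0.0443). The reads of Musk, the kinase through which agrin clusters the receptor, numbered 5, 1 and 4 in RANKL libraries and 6, 10 and 7 in control libraries. All 3 control values of Musk lay above all 3 RANKL values, opposite to the receptor subunits, and without a filter its log2 fold change was -1.34 ± 0.75 (edgeR adjusted p = 0.144).

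Upstream sequences of Chrna1, Chrng and Myog are shown as those of 2 called genes, Chrna1 and Myog, and of the fetal receptor subunit, whose groups overlapped and which was not tested. That of Ckm is shown as an adult muscle gene that was not called. Each is the stretch of 250 bases before the RefSeq start of the gene in GRCm38.p6, 5′ to 3′ on the gene's strand. The RefSeq starts of Chrng and Ckm lie downstream of their GENCODE starts, so both windows lie inside the GENCODE gene, and the window of Myog runs a few bases past its GENCODE start. Capitals mark the E-box CANNTG, the general site of MyoD-type factors, which reads as the same motif on both strands.
Chrna1 (chr2:73580339-73580588, minus strand): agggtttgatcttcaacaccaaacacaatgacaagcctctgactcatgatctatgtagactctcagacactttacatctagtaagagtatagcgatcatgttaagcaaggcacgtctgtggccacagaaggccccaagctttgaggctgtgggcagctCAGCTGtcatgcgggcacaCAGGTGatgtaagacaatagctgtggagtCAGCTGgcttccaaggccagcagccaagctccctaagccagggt
Chrng (chr1:87205561-87205810, plus strand): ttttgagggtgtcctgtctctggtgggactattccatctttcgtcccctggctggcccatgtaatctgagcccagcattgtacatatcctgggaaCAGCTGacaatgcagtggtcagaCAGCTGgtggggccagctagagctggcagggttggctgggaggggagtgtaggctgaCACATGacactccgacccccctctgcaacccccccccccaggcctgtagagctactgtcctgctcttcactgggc
Myog (chr1:134289754-134290003, plus strand): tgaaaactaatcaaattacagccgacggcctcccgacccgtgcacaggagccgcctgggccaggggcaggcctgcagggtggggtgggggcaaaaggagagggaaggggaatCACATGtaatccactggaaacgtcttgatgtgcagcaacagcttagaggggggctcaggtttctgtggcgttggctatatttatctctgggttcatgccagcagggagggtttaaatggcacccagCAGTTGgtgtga
Ckm (chr7:19410844-19411093, plus strand): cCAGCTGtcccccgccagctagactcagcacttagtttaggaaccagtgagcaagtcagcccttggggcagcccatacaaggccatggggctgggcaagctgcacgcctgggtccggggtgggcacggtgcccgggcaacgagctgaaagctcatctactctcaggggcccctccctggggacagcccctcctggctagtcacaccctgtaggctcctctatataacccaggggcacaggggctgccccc
Chrna1 and Chrng each held 3 E-boxes, 2 of them CAGCTG, Myog held 2 and Ckm 1. RefSeq windows were matched for 30 of the 36 members. CANNTG was present in the windows of 25 of these 30, against 66.2% of 32851 windows, and the narrower CAGCTG, which CANNTG includes, in 13 of 30, against 13.0% of all windows. A MEF2 box was present in 4 of the 30, against 2.92% of all windows. These matches describe letters in the windows and were not tested as binding sites.

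Myosin heavy chain is the motor of the thick filament, and Myh3 and Myh8 are its embryonic and perinatal skeletal forms. Myh3 (chromosome 11, 67078300 to 67102291) was at 6.24, 3.62 and 5.80 CPM in RANKL replicates 1, 2 and 3, against 1.21, 0.464 and 0.765 CPM in control replicates 1, 2 and 3. The groups were well apart, and Myh3 rose 6.42-fold (log2 fold change 2.67 ± 0.44, edgeR adjusted p = 0.000557). Myh8, at 67277124 to 67308634 on the same chromosome, was at 2.15, 1.505 and 3.06 CPM in RANKL libraries and 0.474, 0.515 and 0.191 CPM in control libraries. It rose 5.69-fold, again without overlap (log2 fold change 2.50 ± 0.50, edgeR adjusted p = 0.00189). Heavy chains are near copies of one another: 4.81% of the 50-base windows of the Myh3 transcript and 21.4% of those of Myh8 also occur in transcripts of other genes, so reads may be shared between them.

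Adult fast heavy chains, Myh1, Myh2 and Myh4, power fast fibres and overlapped between the groups. Myh4 was at 18.4, 2.16 and 2.59 CPM in RANKL libraries and 11.02, 20.98 and 0.908 CPM in control libraries. RANKL replicate 1 stood with control replicates 1 and 2, and control replicate 3 was the lowest of all. Myh1 was at 13.2, 0.407 and 1.27 CPM in RANKL libraries and 6.70, 4.54 and 1.15 CPM in control libraries, and Myh2 was at 1.99, 0.325 and 0.236 CPM in RANKL libraries and 3.37, 2.83 and 0.239 CPM in control libraries. The log2 fold changes were 0.25 ± 1.05 for Myh1, -1.36 ± 0.94 for Myh2 and -0.52 ± 1.01 for Myh4, with edgeR adjusted p-values of 0.845, 0.228 and 0.673. With a block by the leading digits of the title number, Myh4 turned to 1.03 ± 0.30 and was called higher (edgeR adjusted p = 0.0223). The sign for Myh1 turned negative without RANKL replicate 1, where Myh1 and Myh2 were called lower at -2.25 and -2.84 (edgeR adjusted p = 0.0284 and 0.0293).

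Among the 7 sarcomeric heavy chains together, the embryonic and perinatal pair took 11.5% of reads in RANKL replicate 1, 14.8% in RANKL replicate 2 and 57.0% in RANKL replicate 3. In control replicates 1, 2 and 3 the pair took 1.30%, 2.21% and 16.9%. The 95% Wilson intervals, which cover counting error only, ran from 51.6% to 62.2% in RANKL replicate 3 and from 11.2% to 24.7% in control replicate 3, a library that held only 118 heavy chain reads. Control replicate 3 thus had a larger share than RANKL replicates 1 and 2, and the share did not separate the groups. Its mean was 27.7 ± 25.4% in RANKL libraries and 6.82 ± 8.79% in control libraries (SD, n = 3 each). The denominator of the share, the reads of all 7 heavy chains, was 330 to 1359 reads in RANKL libraries and 118 to 2465 in control libraries.

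**Figure D2:**
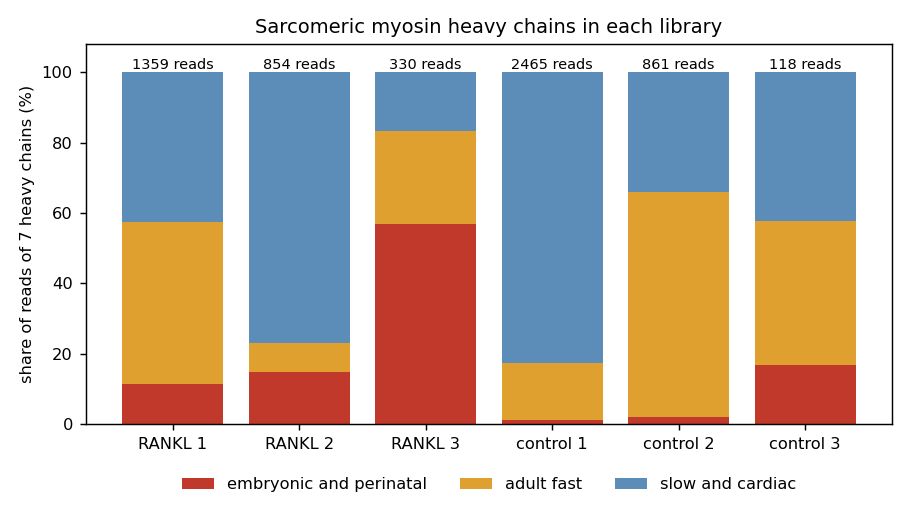
Share of the reads of 7 sarcomeric myosin heavy chains taken by the embryonic and perinatal (Myh3, Myh8), adult fast (Myh1, Myh2, Myh4) and slow and cardiac (Myh6, Myh7) forms in each library, with the reads of all 7 above each bar. The embryonic and perinatal share ran from 11.5% to 57.0% in RANKL libraries and from 1.30% to 16.9% in control libraries.

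As with Myh4, control replicate 2 was the highest and control replicate 3 the lowest library for Acta1 and Ckm. Acta1, skeletal alpha actin, was at 18.4, 2.48 and 2.36 CPM in RANKL libraries and 17.7, 30.1 and 1.00 CPM in control libraries. Ckm, the muscle creatine kinase that buffers ATP, was at 10.5, 1.42 and 1.23 CPM in RANKL libraries and 9.81, 10.98 and 0.239 CPM in control libraries. RANKL replicate 1 and control replicates 1 and 2 were high for both genes and the other 3 libraries low, which gave log2 fold changes of -1.08 ± 1.04 for Acta1 and -0.69 ± 1.09 for Ckm (edgeR adjusted p = 0.386 and 0.599). The fast troponin genes Tnnt3, Tnni2 and Tnnc2, which make calcium control of the thin filament, were not called either, at -0.62 ± 0.90, -0.21 ± 0.53 and -2.19 ± 1.16. Tnnt3 was at 1.06 to 8.77 CPM in RANKL libraries and 0.812 to 13.5 CPM in control libraries, and Tnni2 at 1.83 to 7.43 CPM in RANKL libraries and 3.44 to 6.18 CPM in control libraries. Tnnc2 had 53, 2 and 5 reads in RANKL libraries and 71, 188 and 13 in control libraries. Its exons overlap those of Ube2c on the opposite strand by 592 bases, a gene that was at 35.9, 53.7 and 51.1 CPM in RANKL libraries and 129, 130 and 170 CPM in control libraries. Without RANKL replicate 1, Acta1 and Tnnc2 were called lower, at -2.70 and -4.83 (edgeR adjusted p = 0.0404 and 0.00578).

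Actn3 and Mybpc2, also genes of fast fibres, separated the groups. Actn3, the alpha-actinin of fast fibre Z-discs (chromosome 19, 4861216 to 4877909), was at 68.9, 17.7 and 42.7 CPM in RANKL libraries, against 15.7, 10.7 and 10.7 CPM in control libraries. Per transcript length it averaged 14.9 ± 8.86 CPM per kilobase in RANKL libraries, close to Tnnt2 at 14.2 ± 4.45 CPM per kilobase, and 4.28 ± 1.00 CPM per kilobase in control libraries. Its mean in RANKL libraries rests on replicate 1, at 23.9 CPM per kilobase, whereas in replicate 2 Tnnt2, Des, Actc1 and Mylpf were above it. Actn3 rose 3.49-fold without overlap (log2 fold change 1.80 ± 0.42, edgeR adjusted p = 0.00416). Ctsf, 297 bases from Actn3 on the opposite strand, was at 19.6, 14.5 and 15.4 CPM in RANKL libraries and 8.65, 8.25 and 9.75 CPM in control libraries, and its part in the Actn3 counts was not tested. Mybpc2, the fast myosin binding protein C (chromosome 7, 44501699 to 44524656), was at 13.8, 9.68 and 9.33 CPM in RANKL libraries and 3.95, 5.88 and 0.860 CPM in control libraries. It rose 3.07-fold (log2 fold change 1.62 ± 0.54, edgeR adjusted p = 0.0243), a call lost without RANKL replicate 1 (0.0547) or control replicate 1 (0.0588). Spib, which lies 1336 bases away on the same strand, was at 412, 136 and 247 CPM in RANKL libraries and 50.1, 34.2 and 32.7 CPM in control libraries, and its part in the Mybpc2 counts was not tested.

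Fast light chains were lower in RANKL libraries. Mylpf, the phosphorylatable fast light chain (chromosome 7, 127208890 to 127214298), was at 10.7, 5.45 and 9.19 CPM in RANKL libraries and 17.8, 35.6 and 29.3 CPM in control libraries. No library overlapped, and the log2 fold change was -1.71 ± 0.32 (edgeR adjusted p = 0.00127). Control replicate 3, where Acta1, Ckm and Myh4 were lowest, lay between the other controls for Mylpf. The neighbouring gene Sept1, 148 bases away on the opposite strand, was at 57.0, 66.0 and 141 CPM in RANKL libraries and 524, 547 and 666 CPM in control libraries, and its part in the Mylpf counts was not tested. Myl1, the essential fast light chain, was at 2.15, 1.71 and 1.23 CPM in RANKL libraries and 4.53, 6.03 and 1.77 CPM in control libraries. Its groups overlapped, the log2 fold change was -1.28 ± 0.48 (edgeR adjusted p = 0.0387), and the call was lost without RANKL replicate 2 or 3 or control replicate 1 or 2 (edgeR adjusted p = 0.0709 to 0.149). It was also lost with upper-quartile factors (0.0579), limma-voom (0.0779) and the title number block (0.211). Of the 50-base windows of Myl1, 23.4% also occur in the pseudogene Mylf-ps, so its reads may be shared.

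Cardiac and slow fibre genes mostly followed a different library, control replicate 1. Myh6, the alpha heavy chain of the heart, was at 27.9, 26.0 and 1.37 CPM in RANKL libraries and 102.8, 13.97 and 2.34 CPM in control libraries. Its range in CPM was the widest of the 7 heavy chains, though Myh7 ranged more widely as a ratio, and the log2 fold change of -1.10 ± 1.19 was not called (edgeR adjusted p = 0.438), turning positive at 1.16 without control replicate 1. Myh7, the beta heavy chain of heart and slow fibres, was at 3.23, 0.691 and 1.23 CPM in RANKL libraries and 4.38, 1.08 and 0.0478 CPM in control libraries. Myh6 and Myh7 share 22.6% and 22.2% of their 50-base windows with each other. Actc1, cardiac alpha actin and also the actin of fetal skeletal muscle, was at 9.85, 12.8 and 1.93 CPM in RANKL libraries and 35.0, 5.51 and 3.34 CPM in control libraries. Actn2, the alpha-actinin of heart and all skeletal fibres, and Tnnc1, the troponin C of heart and slow fibres, likewise peaked in control replicate 1, at 9.70 and 7.43 CPM. Control replicates 2 and 3 held 3.25 and 2.82 CPM of Actn2, within the RANKL range of 0.943 to 3.98 CPM. For Tnnc1 they held 1.75 and 0.143 CPM, below all RANKL libraries, which held 2.24 to 3.55 CPM. Log2 fold changes of Actc1, Actn2 and Tnnc1 were -0.83 ± 0.87, -0.94 ± 0.60 and -0.14 ± 0.88, none called.

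Tnnt2, the troponin T of heart and fetal muscle, was at 16.2, 22.8 and 12.3 CPM in RANKL libraries and 15.3, 3.92 and 2.77 CPM in control libraries. Only control replicate 1 reached the RANKL range, and the log2 fold change of 1.22 ± 0.57 was not called (edgeR adjusted p = 0.0848). Without that library it was 2.33 (edgeR adjusted p = 0.000601). Tnni1, the slow troponin I that is also used in fetal muscle (chromosome 1, 135779434 to 135810989), was at 7.37, 2.24 and 5.18 CPM in RANKL libraries, against 1.16, 0.567 and 0.908 CPM in control libraries. It rose 5.62-fold without overlap (log2 fold change 2.48 ± 0.51, edgeR adjusted p = 0.00202). Tnnt1, the slow troponin T, went the other way, at 3.34, 2.07 and 3.35 CPM in RANKL libraries and 4.43, 5.05 and 7.502 CPM in control libraries. It fell by 0.96 ± 0.34 on the log2 scale (edgeR adjusted p = 0.0325), and the call was lost without any one of the RANKL replicates or control replicate 3 (edgeR adjusted p = 0.0556 to 0.114), as it was with upper-quartile factors (0.0584) and the title number block (0.0542). Mybpc1, the slow myosin binding protein C, was at 4.01 to 6.26 CPM in RANKL libraries and 3.53 to 13.7 CPM in control libraries, highest in control replicate 2, and was not called (log2 fold change -0.41 ± 0.49).

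Titin and nebulin, encoded by Ttn and Neb, are the giant rulers of the sarcomere. Ttn was at 36.6, 7.56 and 8.06 CPM in RANKL libraries and 34.4, 18.5 and 2.25 CPM in control libraries, lowest in control replicate 3. Neb was at 6.73, 4.51 and 4.34 CPM in RANKL libraries and 3.53, 7.58 and 1.77 CPM in control libraries. Neither was called, at -0.08 ± 0.85 and 0.27 ± 0.48, but Neb was at 1.14 ± 0.32 and called with the title number block (edgeR adjusted p = 0.0188). Des, the intermediate filament desmin, which smooth muscle also makes, was at 26.9, 31.6 and 34.5 CPM in RANKL libraries and 27.2, 16.8 and 17.2 CPM in control libraries. Des rose by 0.60 ± 0.23 on the log2 scale (edgeR adjusted p = 0.0402), though control replicate 1 lay within the RANKL range, and the call was lost without RANKL replicate 2 or 3 or control replicate 2 or 3 (edgeR adjusted p = 0.0638 to 0.159), without a low-count filter (0.0588) and with the title number block (0.129). Of 9 smooth muscle genes tested, 7 were higher and 1, Synm, lower, beside 33.8% higher and 29.6% lower over all genes. The summed level of the 10 listed was 373 to 528 CPM in RANKL libraries and 193 to 292 CPM in control libraries. The part of smooth muscle in the Des result was not tested.

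Calcium release in skeletal muscle couples the voltage sensor Cacna1s to the release channel Ryr1. Cacna1s (chromosome 1, 136052750 to 136119822) was at 9.42, 5.08 and 7.26 CPM in RANKL libraries, against 3.11, 3.40 and 3.06 CPM in control libraries. The control libraries were tight and all lay below, and Cacna1s rose 2.27-fold (log2 fold change 1.18 ± 0.31, edgeR adjusted p = 0.00782). Ryr1 was at 7.48, 2.28 and 3.16 CPM in RANKL libraries and 3.48, 5.21 and 0.573 CPM in control libraries, overlapped, and was not called (log2 fold change 0.48 ± 0.68, edgeR adjusted p = 0.562). With the title number block it was 1.64 ± 0.43 and called (edgeR adjusted p = 0.0163).

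**Figure D3:**
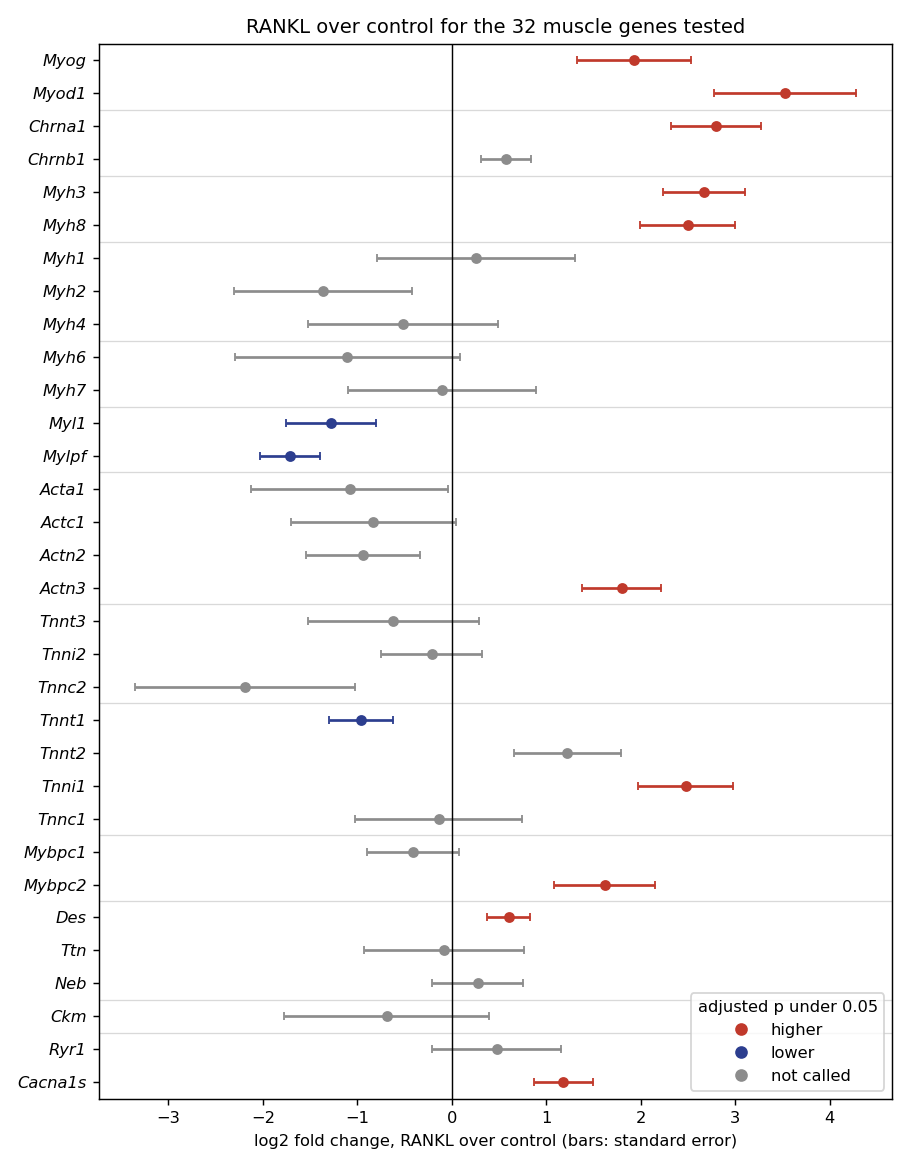
Log2 fold change of RANKL over control libraries for the 32 muscle genes tested by edgeR, with standard errors, in red where called higher, blue where called lower and grey where not called. The largest was Myod1 at 3.53 and the smallest Tnnc2 at -2.19, and errors reach about 1 for the adult and cardiac genes that vary within groups.

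Fetal-type, adult and receptor genes differed in how their summed levels varied between libraries. The 12 adult fast genes summed to 177, 44.3 and 75.7 CPM in RANKL replicates 1, 2 and 3 and to 103.3, 157 and 51.1 CPM in control replicates 1, 2 and 3, with 2 higher, 2 lower and 8 not called, beside 33.8% higher and 29.6% lower over all genes. The 7 slow and cardiac genes summed to 55.4, 42.8 and 18.8 CPM in RANKL libraries and 133, 39.3 and 18.2 CPM in control libraries, with 1 higher, 1 lower and 5 not called. Counts higher in both sets lay below the share over all genes, a difference that was not tested. Both sums overlapped between the groups. The 5 fetal-type genes, Myh3, Myh8, Actc1, Tnnt2 and Chrng, summed to 35.3, 41.0 and 23.9 CPM in RANKL libraries and 52.2, 10.4 and 7.36 CPM in control libraries. Actc1 and Tnnt2, which the heart also uses, made up most of this sum in every library of both groups. The 4 receptor subunits with Musk summed to 12.1, 9.84 and 11.5 CPM in RANKL libraries and 5.85, 6.91 and 5.26 CPM in control libraries. The 3 myogenic factors summed to 2.37, 1.42 and 1.98 CPM in RANKL libraries and 0.580, 0.0515 and 0.382 CPM in control libraries. In these last 2 sets every RANKL library lay above every control library, and Chrnb1 made up most of the receptor sum. In bulk RNA, more cells of a type and more RNA per cell cannot be told apart.

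**Figure D4:**
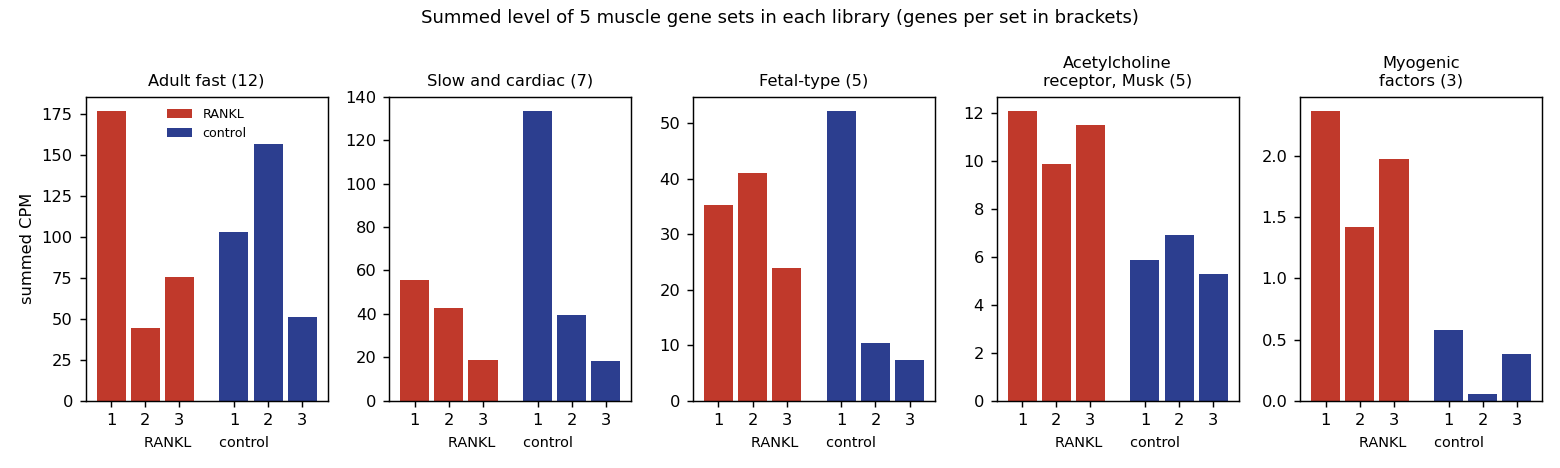
Summed CPM of 5 sets of muscle genes in each library, with RANKL libraries in red left of control libraries in blue and each panel on its own linear axis from 0. Adult fast and slow and cardiac sums overlap between the groups, whereas receptor sums (9.84 to 12.1 CPM in RANKL and 5.26 to 6.91 CPM in control libraries) and myogenic factor sums (1.42 to 2.37 CPM in RANKL and 0.0515 to 0.580 CPM in control libraries) do not.

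Within groups, libraries differed in parallel across many members, though not across every adult fast gene. Mylpf, Actn3 and Tnni2 held 1.10, 0.811 and 0.704 times the mean of control replicates 1 and 2 in control replicate 3. The counts that follow were made over the 36 members and not over all genes. Control replicate 3 was the lowest control library for 22 of the 36 members and held under 0.5 times the mean of control replicates 1 and 2 for 20 of them. RANKL replicate 1 was the highest RANKL library for 27 members and exceeded the mean of RANKL replicates 2 and 3 by over 2 times for 14. For 11 members both held. All reads of the members together made up 0.0375%, 0.0184% and 0.0195% of RANKL replicates 1, 2 and 3 and 0.0352%, 0.0276% and 0.0104% of control replicates 1, 2 and 3. Among the 10 members called higher, 3 (Mybpc2 at 0.175, Myh8 at 0.386 and Myod1 at 0.453) had this ratio of control replicate 3 below 0.5. In the others control replicate 3 was closer to its group, with 0.912 times the mean of the other controls for Myh3, 0.939 times for Cacna1s, 1.05 times for Tnni1 and 1.84 times for Chrna1.

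**Figure D5:**
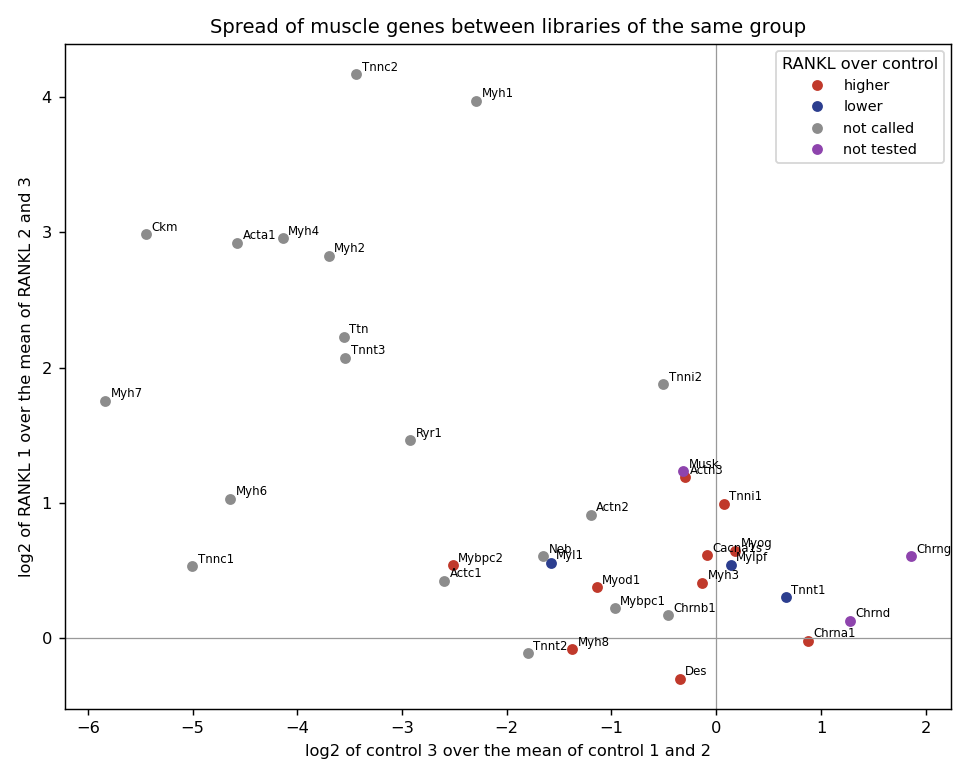
Ratio of control replicate 3 to the mean of control replicates 1 and 2 against the ratio of RANKL replicate 1 to the mean of RANKL replicates 2 and 3, both as log2 of CPM, for 35 muscle genes (Myf5 is left out for lack of reads), coloured by the call of RANKL over control. Adult fast genes such as Ckm, Acta1 and Myh4 lie at the upper left, and most genes called higher lie near the centre.

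Other genes of striated muscle gave a like picture. Of 48 further genes listed, 43 were tested, with 9 higher, 1 lower and 33 not called and a median log2 fold change of 0.29. Over all genes 33.8% were higher and 29.6% lower, so both counts lay below those shares, though the difference was not tested. The 4 with the smallest p all rose: Myom3, an M-band protein, by 2.55 ± 0.44, Tmem8c (myomaker), which fuses myoblasts, by 3.26 ± 0.56, Cdh15, the cadherin of myoblasts, by 2.98 ± 0.59, and Mybph, a myosin binding protein, by 2.57 ± 0.52 on the log2 scale (edgeR adjusted p = 0.000729 to 0.00191). Tmem8c had 97, 36 and 68 reads in RANKL libraries and 5, 6 and 9 in control libraries, and no library overlapped. Tmem8c, Cdh15 and Mybph passed the filter only through RANKL libraries, as Chrna1, Myog and Myod1 did, so their tests depended on the group where they were high. The summed level of the 48 genes was 277, 166 and 163 CPM in RANKL libraries and 302, 161 and 131 CPM in control libraries. None of the 48 was at 0 reads in every library. The 6 heart chamber genes, 4 of which are among the 48, summed to 37.8, 29.6 and 28.0 CPM in RANKL libraries and 72.0, 12.1 and 5.64 CPM in control libraries, highest in the same control replicate 1 as Myh6. Of these 6, 2 were called higher and 4 were not called, beside 33.8% higher and 29.6% lower over all genes. Nppa, the atrial natriuretic peptide gene, had 74, 55 and 65 reads in RANKL libraries and 396, 74 and 10 in control libraries, and was not called. The genes called higher were Nppb, the B-type relative of Nppa, and Myl7, both without overlap. They rose by 2.51 ± 0.50 and 1.45 ± 0.46 on the log2 scale (edgeR adjusted p = 0.00169 and 0.0204).

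Partners of the receptor at the neuromuscular junction moved in both directions, with 3 higher, 1 lower and 2 not called of 6 tested. Over all genes tested 33.8% were higher and 29.6% lower, so calls in both directions were common among genes at large. Agrn, the nerve-derived organiser agrin that epithelium also makes, averaged 179 ± 20.5 CPM in RANKL libraries and 50.5 ± 15.6 CPM in control libraries, and Lrp4, the agrin receptor, averaged 43.9 ± 8.33 CPM in RANKL libraries and 10.2 ± 3.30 CPM in control libraries. Dok7, the adaptor of Musk, had 44, 27 and 20 reads in RANKL libraries and 9, 2 and 0 in control libraries (log2 fold change 2.92 ± 0.84, edgeR adjusted p = 0.0124). It passed the filter only through RANKL libraries, so its test depended on the group where it was high. Colq, the collagen tail that anchors acetylcholinesterase, fell by 2.09 ± 0.26 on the log2 scale (edgeR adjusted p = 0.000105). Chrne, the adult epsilon subunit that replaces Chrng, was looked at after its values were seen: it had 12, 9 and 19 reads in RANKL libraries and 4, 0 and 3 in control libraries and was not tested, so the fetal and the adult subunit were both scarce and both had more reads in RANKL libraries.

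Markers of medullary epithelium were higher in RANKL libraries, as were 33.8% of all genes tested. All 9 listed were called higher, with a median log2 fold change of 3.35 and summed levels of 4599 to 5782 CPM in RANKL libraries and 553 to 700 CPM in control libraries, and Aire was at 110, 104 and 235 CPM in RANKL libraries and 13.1, 8.61 and 9.37 CPM in control libraries. All 8 listed transcripts restricted to other organs were higher as well, with a median of 3.73 and summed levels of 180 to 490 CPM in RANKL libraries and 9.64 to 25.2 CPM in control libraries. Of these, Ins2, with 9, 4 and 3 reads in control libraries, passed the filter only through RANKL libraries, so its test depended on the group where it was high. Both lists were chosen with earlier results of these data known. Among the 10 members called higher, log2 fold changes were 3.53 for Myod1, 2.80 for Chrna1, 2.67 for Myh3, 2.50 for Myh8 and 2.48 for Tnni1. They were 1.93 for Myog, 1.80 for Actn3, 1.62 for Mybpc2, 1.18 for Cacna1s and 0.60 for Des. The part of medullary epithelium in the muscle results was not tested.

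Counts of called members under other settings stood beside shares of all genes as follows. DESeq2 called 11 members higher and 3 lower, against 33.9% and 30.3% of genes, and limma-voom called 11 higher and 2 lower, against 33.8% and 29.4%. Library totals without factors left the counts at 10 and 3, against 34.2% and 28.6%, and a filter of 1 CPM in 3 libraries gave 8 and 3, against 33.6% and 30.1%. A threshold of 0.01 gave 7 and 1, against 27.9% and 21.1%. A block by the leading digits of the title number, which the labels do not call a batch, gave 13 and 1, against 32.5% and 28.3%, with Myh4, Chrnb1, Neb and Ryr1 added and Des lost among those higher. With RANKL replicate 1, 2 or 3 left out, 8, 11 and 9 members were higher, against 31.6%, 33.3% and 31.9% of genes, and 6, 1 and 1 lower, against 23.9%, 24.9% and 24.2%. With control replicate 1, 2 or 3 left out, 11, 9 and 10 members were higher, against 33.3%, 31% and 31.5% of genes, and 2 were lower each time, against 27.6%, 26.1% and 27.9%.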

How the data were processed

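The authors deposited unnormalised read counts for each gene in 6 thymus libraries, made with a stranded mRNA kit per the labels' protocols. STAR and mm10 appear in the submitters' processing notes; counter, strand setting and annotation: not given in the sources used here. Overlapping, antisense and near-identical genes may therefore share reads. Nothing in the labels says that libraries came from separate animals, so the spread behind each p-value may be technical. Replicate numbers follow accession order and pair nothing. Intervals and floors cover counting error only. Within-group pairs differed beyond sampling noise (chi-square per degree of freedom 31.7 to 67.9).

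Genes passing filterByExpr of edgeR 4.0.16 (R 4.3.3) were scaled by TMM and tested two-sided with the robust quasi-likelihood test, RANKL over control, without covariates, and Benjamini-Hochberg adjusted over all 16096 genes. CPM used TMM-scaled totals, and standard errors came from the F statistic. Code was tested on simulated data. Positions, transcript lengths (longest coding transcript) and 50-base shared windows came from GENCODE M21 (GRCm38), and upstream sequences from RefSeq. All members are described. Other genes were named from lists by smallest p, up to 4 per list, with Tnfsf11 and Aire. Neighbouring genes, Chrne and Ins2 were added after values were seen. Members and lists were chosen with earlier results of these data known. Alternatives were other scalings, filters, DESeq2 1.42.0, limma-voom (limma 3.58.1), a title number block, a stricter threshold and each library left out. Figures used matplotlib 3.10.9.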

Additional observations from a re-analysis of the deposited data

How the results depend on the processing

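No paired analysis was possible because the labels give no replicate numbers; the title number block groups libraries by the leading digits of their titles, which the labels do not call a batch or a pairing, and it gave 13 members higher and 1 lower. With the settings tried, all 13 called members kept their sign, and Mylpf, Myh3 and Myh8 kept their call under every one, while 10 lost it somewhere. The count of members called higher ran from 7 to 13 and that called lower was 3 in the main setting, 2 with limma-voom, 1 with upper-quartile factors, a threshold of 0.01, the title number block or the single title block described next, and 1 to 6 with a library left out; upper-quartile factors, which shifted the median of all genes by 0.10 on the log2 scale, thus gave 10 higher and 1 lower. Chosen after seeing the data was a fit within 1 title block alone, RANKL replicates 2 and 3 against control replicate 3, in which the lone control is assumed to vary like the others; Chrna1 there was 2.26, Myog 1.54 and Myod1 4.13, none called.

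Among the 19 members not called, 14 changed sign somewhere. Within that title block the log2 fold change was 1.23 for Acta1, 1.10 for Actc1, 2.41 for Ckm, -0.50 for Myh1, 1.34 for Myh4, 2.52 for Myh6, 4.13 for Myh7, 1.31 for Tnnt3, 4.01 for Tnnc1, 0.19 for Mybpc1 and 1.76 for Ttn, with Tnnc1 and Ttn called. With the title number block it was 0.61 for Acta1, 0.95 for Ckm, 1.03 for Myh4 (called), 0.29 for Myh6, 0.93 for Myh7, 1.00 for Tnnt3, 0.0023 for Tnni2, 0.93 for Tnnc1, 0.45 for Mybpc1 and 0.94 for Ttn. With limma-voom it was -0.87 for Myh1, 1.01 for Myh7, 1.14 for Tnnc1 and 0.19 for Ttn, and with upper-quartile factors 0.030 for Myh7 and 0.054 for Ttn. With a library left out, values ran from -1.32 to 0.87 for Actc1, -2.25 to 0.83 for Myh1, -2.17 to 0.34 for Myh4, -1.68 to 1.16 for Myh6, -0.86 to 1.57 for Myh7, -1.63 to 0.42 for Tnnt3, -1.09 to 0.13 for Tnni2, -0.72 to 1.56 for Tnnc1, -0.75 to 0.42 for Mybpc1, -1.17 to 0.73 for Ttn, -0.11 to 0.94 for Neb and -0.14 to 1.06 for Ryr1. The causes were not tested. Members with under 30 reads in every library, such as Myog, Myod1, Chrnd, Chrng, Musk and Myf5, are limited by depth.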

Other observations

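Transcripts of fat, a tissue beside the thymus, also differed between libraries. Ucp1, the uncoupling protein of brown fat, was at 200.3, 16.5 and 17.9 CPM in RANKL replicates 1, 2 and 3 and 180.04, 48.9 and 232 CPM in control replicates 1, 2 and 3. Control replicate 3, the lowest control for most muscle genes, was the highest control for Ucp1, so Ucp1 and those genes differed in their order of control libraries. Among RANKL libraries, replicate 1 was the highest for Ucp1, as it was for Acta1, Ckm and Myh4. Of 6 fat genes tested, Plin1, which coats lipid droplets, and Cidea fell by 0.94 ± 0.24 and 1.26 ± 0.38 on the log2 scale (edgeR adjusted p = 0.00677 and 0.0154), and 4 were not called. Among 5 genes of peripheral nerve, Pmp22 was higher, Mbp lower and 3 not called, with summed levels of 152 to 190.5 CPM in RANKL libraries and 186 to 268 CPM in control libraries. The calls of fat and nerve genes stand beside 33.8% higher and 29.6% lower over all genes tested.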
